A study of Mus musculus with 4 samples.

Results

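Map3k11, the gene of mixed lineage kinase 3, and 9 further genes of the c-Jun N-terminal kinase (JNK) cascade were followed in sorted lung cells. They are Map3k1, Map3k5, Map3k7, Map3k12, Map2k4, Map2k7, Mapk8, Mapk9 and Mapk8ip3. The 10 genes were chosen by symbol from the 22565 genes of the deposited table, and all 10 passed the level filter that left 11055 genes for testing. Map3k11 was itself selected on its low values in both KO libraries, so its KO against WT difference is described and its own p-value is not given. It stayed in the fits, so counts over all tested genes include it and are no verdict on it.

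The cells were alveolar epithelial type II (AT2) cells, which make lung surfactant, sorted by flow cytometry from untreated 6-month-old mice. The KO group has 2 libraries from mice called Fbxo45-cKO in the growth protocol, and the WT group has 2 libraries from mice of the same age. The genotype field of KO replicate 1 names a knockout of Fbxo45, an F-box gene whose product binds substrates for a ubiquitin ligase. For KO replicate 2 that field reads Fbxo46, although its title places it with the KO group. The driver of the conditional deletion and the number of mice behind each library were not given in the sources used here. Each p-value therefore measures the spread between libraries that may be technical repeats.

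The JNK cascade is a relay of protein kinases that answers stress and cytokines. A MAP kinase kinase kinase (MAP3K) phosphorylates the MAP kinase kinases MKK4 and MKK7, these phosphorylate the JNKs, and the JNKs phosphorylate c-Jun and other transcription factors of the AP-1 family. Scaffold proteins of the JIP family hold the kinases of a branch together, and in epithelia the pathway is known for its part in stress responses, cell death and wound repair.

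The recovered fragments per library were 9507423 and 7066421 in KO and 4167115 and 8200167 in WT. Fbxo45 was at 4.41 and 7.58 FPKM (fragments per kilobase of transcript, scaled to library size) in KO replicates 1 and 2, against 4.60 and 5.91 FPKM in the WT libraries, and Fbxo46 was at 3.82 and 4.80 FPKM in KO, against 4.13 and 3.79 FPKM in WT. The groups overlap for both genes, and these values per gene do not resolve a deleted exon, so directions below are those of libraries labelled KO. Summed FPKM of 8 AT2 markers was 80802 and 115200 in KO and 128880 and 122650 in WT, mostly from Sftpc. The other 7 summed to 26345 and 27511 FPKM in KO and 27331 and 27664 FPKM in WT, and 5 of the 8 had a higher log2 mean in KO. Summed FPKM of 5 macrophage markers was at most 0.875 in any library, with Marco, Emr1 and Siglec5 listed at 0 in all 4. Neutrophil, lymphocyte and endothelial markers each summed to at most 6.68 FPKM. Other lists were higher: 5 club and ciliated cell markers summed to 1159 and 824 FPKM in KO and 1338 and 916 in WT. The sums of 5 alveolar type I markers were 945 and 602 FPKM in KO and 731 and 599 in WT. For 4 fibroblast markers they were 32.8 and 28.7 FPKM in KO and 31.5 and 12.2 in WT. Summed FPKM of 6 fast skeletal muscle markers came to 913 and 7.15 in KO replicates 1 and 2, against 0.159 and 8.27 in WT, so KO replicate 1 stands apart in these genes. Log2 values of all tested genes correlated at 0.9055 between the KO libraries and at 0.9712 between the WT libraries.

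Map3k11 (ENSMUSG00000004054) lies on the plus strand of chromosome 19, from 5688742 to 5702865 in GRCm38, the assembly also called mm10. This annotated span begins within the neighbour Pcnx3, given as Pcnxl3 in the table, which starts at 5688908 on the minus strand. The 3898-base coding transcript of Map3k11 starts at 5689037, so this transcript and Pcnx3 run apart. The 128 bases between those starts, at chr19:5688909-5689036, are shown because Map3k11 had the largest difference of the 10 genes. They come from the RefSeq promoter table of GRCm38.p6, read 5′ to 3′ on the plus strand, and capitals mark a match to the ETS-type motif CCGGAAG, which occurs here on the minus strand.
Map3k11 start region: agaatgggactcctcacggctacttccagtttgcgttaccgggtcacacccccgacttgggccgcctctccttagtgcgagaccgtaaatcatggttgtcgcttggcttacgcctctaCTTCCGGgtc
The match leaves 3 bases before the coding transcript start at 5689037, whereas RefSeq places the start at 5689131. The Map3k11 window searched ran from 5688881 to 5689180, wider than the bases shown. The ETS-type motif was added to the search after the sequence was seen. It occurs on either strand in 8.86% of 32851 RefSeq mouse promoter windows, and among 14 windows of the cascade genes in 2, those of Map3k11 and Mapk8ip3. The AP-1 motif TGANTCA (7.81% of all windows), the CRE motif TGACGTCA (1.79%), the GC box GGGCGG (35.7%) and the CCAAT box (37.4%), each searched on both strands, had no match in the Map3k11 window. Among the 14 windows of the cascade genes, AP-1 matched in 1, of Map2k7, CRE in 0, the GC box in 9 and CCAAT in 3. A match describes letters in a window and is no measure of binding.

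Map3k11 encodes a MAP3K that binds the small GTPases Rac and Cdc42 and phosphorylates MKK4 and MKK7. It was at 2.49 and 3.57 FPKM in KO replicates 1 and 2, against 12.5 and 10.5 FPKM in WT replicates 1 and 2. Both KO libraries lay below both WT libraries, with no overlap. The mean was 3.03 ± 0.767 FPKM in KO and 11.5 ± 1.40 FPKM in WT (SD, n = 2 each), a log2(FPKM + 1) difference of -1.64 (SE 0.278). This scale understates changes of low genes, and since these values chose the gene, they describe it and support nothing further. The fragment counts behind these values were about 110 (109.68) and 106 (106.28) in KO and 228 and 378 in WT. CPM are the recovered fragments scaled to library size. In CPM, Map3k11 was at 11.5 (95% exact binomial interval 9.51 to 13.9) in KO replicate 1. KO replicate 2 was at 15.0 (12.3 to 18.1). The WT libraries were at 54.7 (47.8 to 62.3) and 46.1 CPM (41.6 to 51.0), and all these intervals cover counting error only. The WT mean was 3.79-fold that of KO both by CPM and by FPKM. Set against the WT mean one at a time, KO replicate 1 gave a log2 difference of -1.83 and KO replicate 2 of -1.44. The part of the muscle signal of KO replicate 1 in these values was not tested. In sorted bulk RNA, fewer cells that express a gene and less RNA per cell cannot be told apart.

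The other 9 genes lay at 2.75 to 46.3 FPKM over the 4 libraries, and none had both KO libraries below both WT libraries, as the plot of FPKM by library shows. Of the 9 genes other than Map3k11, limma with Benjamini-Hochberg adjustment over all 11055 tested genes called 0. It called 0 of all tested genes (0.0%), with 535 at an unadjusted p under 0.05, among them 0 of the 9. From recovered fragments, the edgeR test called 0 of 11705 (0.0%; 372 had an unadjusted p under 0.05). The DESeq2 test called 7 of 15326 (0.0457%; 279 had an unadjusted p under 0.05), and none of the 7 was among the 9. Adjusted p of the 9 ran from 0.948 to 0.988 in limma, with the lowest unadjusted p at 0.214. By FPKM, 7 of the 9 had a higher mean in KO and 2 a lower mean, with log2 differences between -0.10 and 0.44 and a median of 0.13, while all tested genes had a median of 0.03, with 5984 higher and 5071 lower. In 8 of the 9 the groups overlapped, in 1 both KO libraries lay above both WT libraries and in 0 both lay below, where 20.0% of tested genes lay above in this way and 15.1% below. With 2 libraries a group, a p that misses the threshold does not show equal levels.

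**Figure D1:**
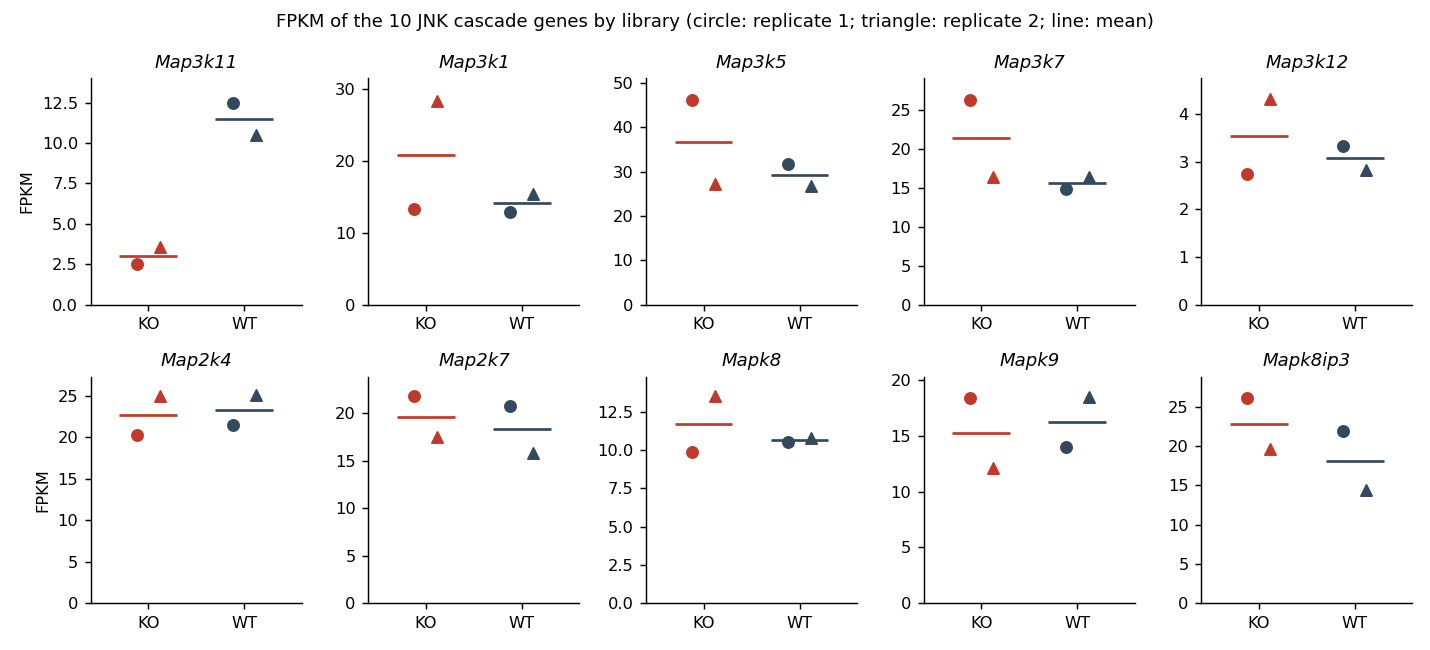
FPKM (vertical axis, from 0, a separate scale per panel) of the 10 genes in the 2 KO libraries (red, left) and the 2 WT libraries (dark, right), with a line at each mean. Map3k11 is at 2.49 and 3.57 FPKM in KO and at 12.5 and 10.5 FPKM in WT, whereas KO and WT points overlap in height in 8 of the other 9 panels.

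Among the MAP3K genes, Map3k5 had the highest mean FPKM of all 10. It encodes ASK1, which thioredoxin holds inactive until oxidative stress, and was at 46.3 and 27.2 FPKM in KO, against 31.7 and 26.7 FPKM in WT. KO replicate 1 was the highest library and KO replicate 2 lay between the WT libraries, and the log2(FPKM + 1) difference was 0.28 (SE 0.299, limma adjusted p = 0.956). In CPM it was at 180 (179.86) and 140 (140.38) in KO and 142 and 137 in WT, so KO replicate 1 was again the highest.

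Map3k1, which encodes the kinase MEKK1, also carries a ubiquitin ligase domain. It was at 13.3 and 28.4 FPKM in KO, against 12.8 and 15.4 FPKM in WT. KO replicate 2 was the high library, KO replicate 1 lay between the WT libraries, and FPKM gave a log2 difference of 0.44 (SE 0.374, limma adjusted p = 0.948). In CPM the high value of KO replicate 2 was absent: Map3k1 was at 87.2 and 79.8 CPM in KO and at 76.0 and 84.0 CPM in WT, and the edgeR log2 difference was 0.05.

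Map3k7 encodes TAK1, which is activated through TAB adaptors downstream of cytokine and Toll-like receptors. It was at 26.4 and 16.397 FPKM in KO, against 14.9 and 16.385 FPKM in WT. Both KO libraries lay above both WT libraries, but KO replicate 2 and WT replicate 2 were nearly equal, and FPKM gave a log2 difference of 0.39 (SE 0.282, limma adjusted p = 0.948). In CPM the order was another: Map3k7 was at 75.2 and 99.9 CPM in KO and at 84.2 and 89.0 CPM in WT, the groups overlapped and the edgeR log2 difference was 0.01.

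Map3k12 encodes the dual leucine zipper kinase, best known from neurons, and had the lowest mean FPKM of the 10. It was at 2.75 and 4.32 FPKM in KO, against 3.33 and 2.83 FPKM in WT, with KO replicate 1 below and KO replicate 2 above both WT libraries. Its log2 difference by FPKM was 0.13 (SE 0.319, limma adjusted p = 0.983). In CPM it was at 14.6 and 12.3 in KO and at 16.3 and 12.2 in WT, and the edgeR log2 difference was -0.08.

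The MAP2K genes had the KO and WT groups overlapping. Map2k4 encodes MKK4, which phosphorylates JNK and p38 kinases, and was at 20.3 and 25.0 FPKM in KO, against 21.5 and 25.1 FPKM in WT. By FPKM it differed by a log2 value of -0.04 (SE 0.225, limma adjusted p = 0.988), and by edgeR of -0.07. Map2k7 encodes MKK7, which is specific to JNK, and was at 21.8 and 17.5 FPKM in KO, against 20.8 and 15.8 FPKM in WT. In both genes the replicates of a group differed by more than the group means. In CPM, Map2k4 was at 69.3 and 73.6 in KO and at 70.8 and 78.0 in WT, and Map2k7 was at 71.5 and 63.5 in KO and at 77.7 and 60.6 in WT, so that the groups overlapped on this scale as well. The log2 difference of Map2k7 by FPKM was 0.10 (SE 0.247, limma adjusted p = 0.983) and its edgeR log2 difference was -0.04.

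The kinases JNK1 and JNK2 are encoded by Mapk8 and Mapk9. Mapk8 was at 9.91 and 13.5 FPKM in KO, against 10.6 and 10.8 FPKM in WT, with the WT libraries close together and the KO libraries on either side of them. It differed by a log2 value of 0.11 (SE 0.251, limma adjusted p = 0.983), and by edgeR of -0.13. In CPM it was at 28.0 and 38.1 in KO and at 35.8 and 36.2 in WT, again with WT between the KO libraries. Mapk9 was at 18.4 and 12.1 FPKM in KO, against 14.0 and 18.5 FPKM in WT. In Mapk9, KO replicate 2 was the lowest library and WT replicate 2 the highest, with a log2 difference of -0.10 (SE 0.288, limma adjusted p = 0.983). In CPM the 4 libraries of Mapk9 lay closer together, at 59.3 and 57.5 in KO and at 56.9 and 62.1 in WT.

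Mapk8ip3 encodes the scaffold JIP3, which also links cargo to kinesin and dynein motors. It was at 26.2 and 19.7 FPKM in KO, against 22.0 and 14.4 FPKM in WT. In each group replicate 1 was the higher library, and the groups overlapped. In CPM it was at 71.4 and 61.3 in KO and at 71.0 and 53.9 in WT, in the same order within each group. Mapk8ip3 had a log2 difference of 0.33 (SE 0.287, limma adjusted p = 0.948) by FPKM and of 0.09 by edgeR.

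The spread between replicates was wider in KO than in WT for 8 of the 10 genes, measured as the gap of log2(FPKM + 1) between the 2 libraries of a group. Of all tested genes, 71.5% had the wider gap in KO, with a median gap of 0.409 in KO and 0.184 in WT. In 7 of the 9 genes other than Map3k11 the KO libraries fell on opposite sides of the WT mean. The share of all tested genes that did so was not computed, so this count cannot be read as a trait of these genes. On the fragment scale the spread of directions was narrower: edgeR gave log2 differences between -0.13 and 0.19, with 4 of the 9 higher and 5 lower in KO, and the sign differed from that by FPKM in 3 genes. The plot of log2 differences sets both scales side by side.

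**Figure D2:**
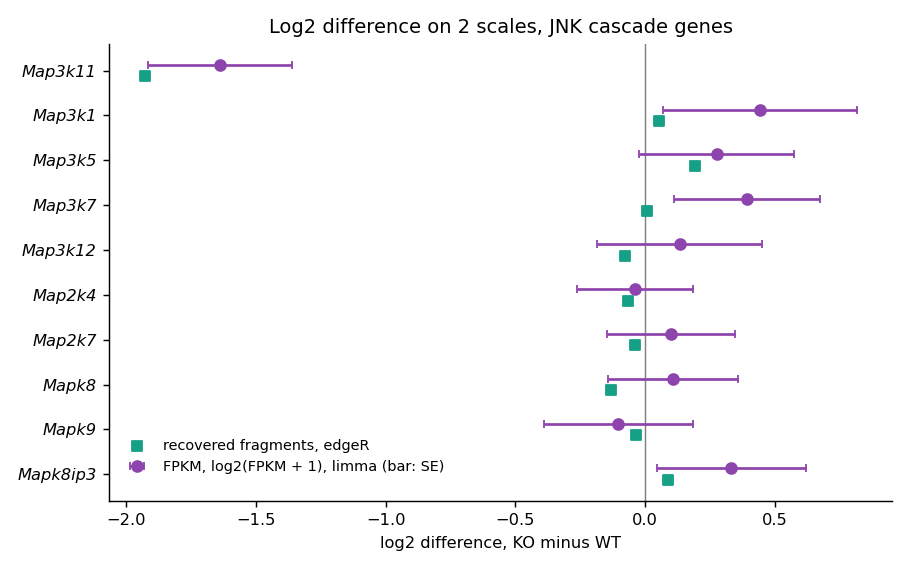
Log2 difference, KO minus WT (horizontal axis), of the 10 genes from FPKM with limma (purple circles, bars are SE) and from recovered fragments with edgeR (green squares). Map3k11 is at -1.64 by FPKM and -1.93 by fragments, and the other 9 lie between -0.13 and 0.44 on both.

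The deposited FPKM and counts together show which transcript length the authors' software divided by, since a count over an FPKM is proportional to that length. The ratio was turned into kilobases on 271 genes with a single annotated transcript. For Map3k11 the length was 3.84 and 3.86 kb in KO and 3.86 and 3.86 kb in WT, close to the 3898 bases of its longer coding transcript, with a highest over lowest library of 1.01. The Map3k11 difference is seen in the fragments, while this length was nearly equal between libraries. The length is derived from the deposited values and was not measured, and its part in the difference was not tested.

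For 4 of the 10 genes the length differed by 1.5 times or more between libraries, against 20.8% of 9985 genes with a value, whose median ratio was 1.15. Map3k7 had a length of 2.36 and 5.59 kb in KO and 4.97 and 4.77 kb in WT, a ratio of 2.37. Map3k1 had a length of 5.44 and 2.58 kb in KO and 5.21 and 4.78 kb in WT, a ratio of 2.11. The short lengths fall in the libraries with the high FPKM of these genes, KO replicate 1 for Map3k7 and KO replicate 2 for Map3k1. Since this length is the count over the FPKM, a high FPKM at a similar count gives a short length by construction. The same holds for the next 2 genes, so these matches are no separate evidence. Map3k12, at a ratio of 1.68, had 2.62 kb in KO replicate 2, the library of its highest FPKM. Mapk9, at a ratio of 1.63, had its longest value of 4.36 kb in KO replicate 2, the library of its lowest FPKM. The other 5 genes had ratios between 1.07 for Map2k4 and 1.47 for Map3k5. Whether transcript use differed or the estimate of it was uncertain was not tested.

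**Figure D3:**
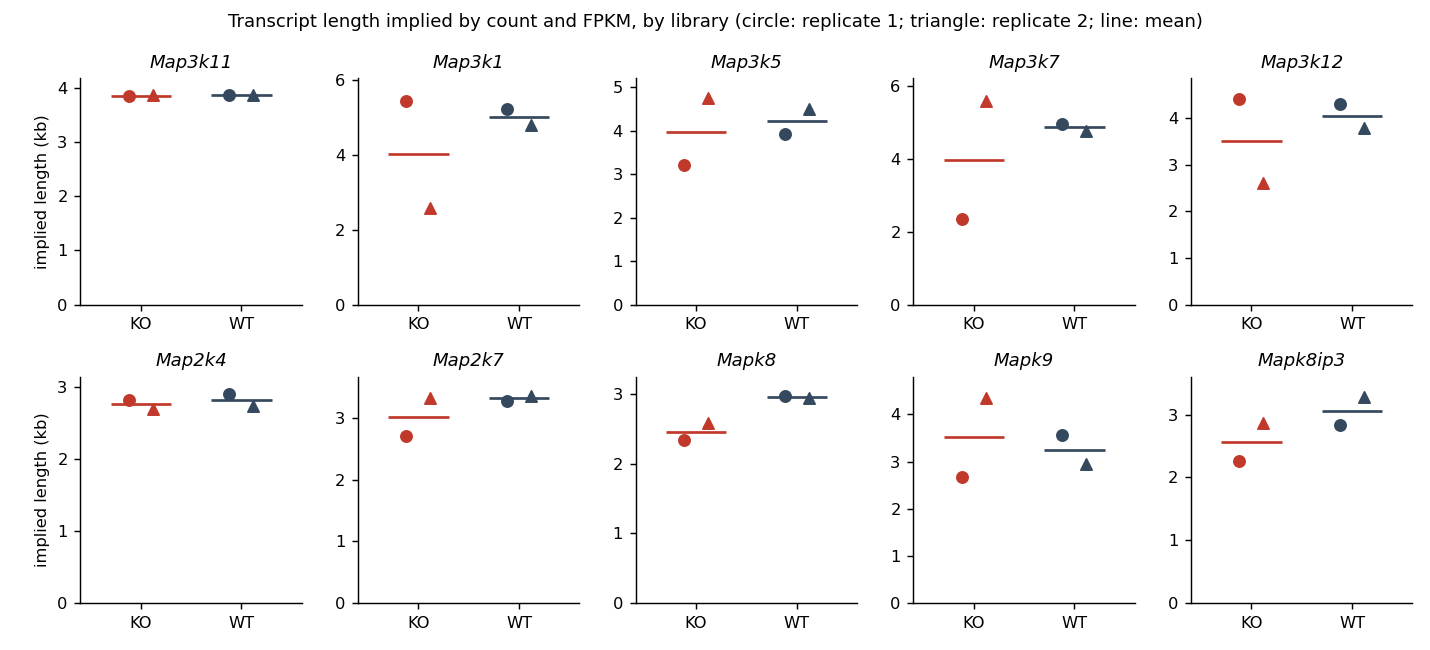
Transcript length in kb (vertical axis, from 0) implied by the count and FPKM of each of the 10 genes, in the KO libraries (red, left) and the WT libraries (dark, right), with a line at each mean. Map3k11 has 3.84 to 3.86 kb in all 4 libraries, while Map3k7 has 2.36 kb in KO replicate 1 and Map3k1 has 2.58 kb in KO replicate 2.

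The table gives genes that its software assembled together a single locus string, and 6 of the 10 genes had a locus of their own. Map3k12 shared its locus with 3 other genes, Map2k7 with 1 and Mapk8ip3 with 4. Map3k11 shared its locus, chr19:5590100-6300096 or 710 kb, with 38 other genes. Of these, 29 were tested, 7 with a higher and 22 with a lower mean in KO, at a median log2 difference of -0.18 against 0.03 for all tested genes. By edgeR 8 of the 29 were higher and 21 lower, at a median of -0.19. Both KO libraries lay below both WT libraries in 10 of the 29, where 15.1% of all tested genes did, and above them in 1, where 20.0% did, and limma called 0. The range of these 29 was -0.98 to 0.34. Map3k11 lay below it at -1.64, but it was selected on its low KO values, so this rank is no result about the locus. Summed over the 38 other genes, the locus had 1320 (1319.5) and 1008 CPM in KO and 1304 and 1186 CPM in WT, with overlap between the groups.

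Of the genes beside Map3k11, its divergent neighbour Pcnx3 was at 21.7 and 23.7 FPKM in KO, against 27.0 and 27.1 FPKM in WT. Both KO libraries were lower, by a log2 difference of -0.24 (SE 0.201, limma adjusted p = 0.948), or -0.45 by edgeR. The lowest differences after Map3k11 were those of Fam89b and Rnaseh2c, which encodes a subunit of the nuclease RNase H2. Fam89b was at 5.58 and 10.5 FPKM in KO, against 15.5 and 16.8 FPKM in WT (log2 difference -0.98, limma adjusted p = 0.948). Rnaseh2c was at 5.60 and 8.99 FPKM in KO, against 16.2 and 13.7 FPKM in WT (log2 difference -0.97, or -1.55 by edgeR, limma adjusted p = 0.948). Both genes had no overlap between groups, which comes in part from their choice as the lowest of the locus. Sssca1, close behind them at a log2 difference of -0.96 by FPKM, was at -0.04 by edgeR. Rela, the NF-kappa-B subunit at the same locus, was at 26.1 and 14.1 FPKM in KO, against 20.2 and 18.9 FPKM in WT, with the KO libraries on either side of WT. Kat5, an acetyltransferase, was at 16.7 and 3.65 FPKM in KO, against 9.05 and 10.9 FPKM in WT, again on either side.

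**Figure D4:**
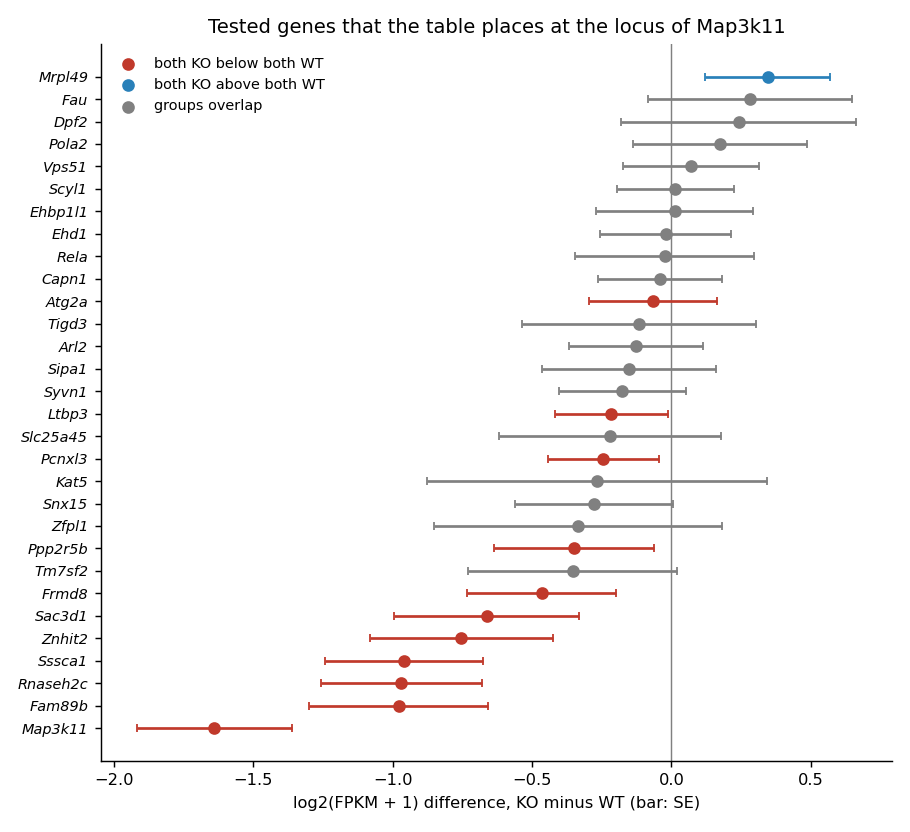
Log2(FPKM + 1) difference, KO minus WT (horizontal axis, bars are SE), of Map3k11 and the 29 other tested genes at its locus, coloured by whether both KO libraries lie below both WT libraries (red), above them (blue) or overlap (grey). Map3k11, selected on its low KO values, is lowest at -1.64, and the others run from -0.98 to 0.34.

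Annotated exons overlap between some of these genes, and whether reads were counted by strand was not given in the sources used here, although the kit was stranded. In GENCODE M21, 89 of 4393 exon bases of Map3k11 (2.03%) overlap Pcnx3 and 430 (9.79%) overlap an antisense gene, AC134563.1, both on the other strand. Exons of Pcbp2, on the other strand, cover 17.5% of the exon bases of Map3k12. Eme2, on the same strand, covers 10.7% of those of Mapk8ip3, and Gm49320, on the same strand, covers 35.2% of those of Map2k7. Further overlaps on the other strand are those of Mrps34 (8.99%) and Nme3 (3.96%) with Mapk8ip3 and of a predicted gene (1.77%) with Map3k12. Values of Map3k11, Map3k12, Map2k7 and Mapk8ip3 are uncertain for this reason, and the part of these overlaps in any value was not tested.

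Genes above, beside and below the cascade were then described by list. Over the 6 lists, limma called 0 of 69 tested genes, edgeR 0 of 72 and DESeq2 1 of 77, where DESeq2 called 0.0457% of all genes. In limma 2 of the 69 (2.9%) had an unadjusted p under 0.05, as had 4.84% of all tested genes. Most genes named below had the smallest p of their list, so groups without overlap come in part from that choice. Of all tested genes, 15.1% had both KO libraries below both WT libraries and 20.0% above. The other upstream kinases of JNK had 17 tested genes, 11 higher and 6 lower in KO, with a median log2 difference of 0.06. Of the 17, 0 had both KO libraries below both WT libraries and 2 had both above. Taok3, a kinase of the TAO family with the highest FPKM of that list, was at 98.5 and 60.9 FPKM in KO, against 76.4 and 65.9 FPKM in WT. Map4k4 was at 13.1 and 13.4 FPKM in KO, against 9.17 and 10.6 FPKM in WT, with both KO libraries higher (log2 difference 0.40, limma adjusted p = 0.948). Map3k21, which encodes a mixed lineage kinase like Map3k11, was at 2.96 and 3.92 FPKM in KO, against 2.51 and 2.52 FPKM in WT. Its KO libraries were both above WT, with a log2 difference of 0.33 (SE 0.299, limma adjusted p = 0.948). Map4k3 was at 28.2 and 33.4 FPKM in KO, against 25.2 and 28.3 FPKM in WT, with overlap.

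Among adaptors, scaffolds and switches of JNK, 5 of 12 tested genes were higher and 7 lower in KO, with a median of -0.12. Of the 12, 4 had both KO libraries below both WT libraries and 1 had both above. Txn1, the thioredoxin that holds ASK1, was at 112 and 153 FPKM in KO, against 135 and 141 FPKM in WT. The scaffold genes Spag9, which encodes JIP4, and Mapk8ip1, which encodes JIP1, lay on opposite sides. Spag9 was at 41.7 and 42.4 FPKM in KO, against 30.7 and 33.4 FPKM in WT (log2 difference 0.38, limma adjusted p = 0.948), and by edgeR the log2 difference was 0.10. Mapk8ip1 was at 5.86 and 4.16 FPKM in KO, against 9.28 and 6.55 FPKM in WT (log2 difference -0.57, limma adjusted p = 0.948). Tab1, a partner of TAK1, was at 2.91 and 3.33 FPKM in KO, against 4.75 and 4.64 FPKM in WT (log2 difference -0.47, limma adjusted p = 0.948).

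Of the JNK phosphatases and inhibitors, 3 of 7 tested genes were higher and 4 lower, with a median of -0.13. Of the 7, 0 had both KO libraries below both WT libraries and 1 had both above. Dusp1, the phosphatase gene with the highest level, was at 86.0 and 74.9 FPKM in KO, against 112 and 68.3 FPKM in WT, with overlap. Dusp16, whose product acts on JNK, was at 58.9 and 38.8 FPKM in KO, against 33.5 and 32.7 FPKM in WT, both KO libraries being higher (log2 difference 0.52, limma adjusted p = 0.948), with 0.23 by edgeR. Dusp10 had 0.624 and 7.30 FPKM in KO, against 1.44 and 1.27 FPKM in WT, so KO replicate 2 alone was high. The log2 difference of Dusp10 was 0.64 by FPKM and 0.21 by edgeR. Gadd45b, whose product inhibits MKK7, was at 15.9 and 30.1 FPKM in KO, against 26.9 and 26.2 FPKM in WT, with the KO libraries on either side.

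Of the JNK substrates and AP-1 genes, 8 of 15 tested were higher and 7 lower, with a median of 0.03, and 2 had an unadjusted limma p under 0.05. Of the 15, 3 had both KO libraries below both WT libraries and 3 had both above. The 2 with a small p were Jund and Junb. Jund, 1 of 2 genes at its locus in the table, encodes an AP-1 partner of c-Jun and was at 22.5 and 26.5 FPKM in KO, against 69.3 and 50.0 FPKM in WT. Both KO libraries were lower, by a log2 difference of -1.23 (SE 0.242), at an adjusted p of 0.948 in limma, 0.999 in edgeR and 0.00345 in DESeq2. Junb was at 18.5 and 31.7 FPKM in KO, against 57.9 and 40.0 FPKM in WT (log2 difference -0.96, adjusted p = 0.948 in limma). Jun, which encodes c-Jun, the substrate that names the pathway, was at 80.7 and 71.5 FPKM in KO, against 129 and 78.8 FPKM in WT. WT replicate 1 was the high library and the other WT library lay between those of KO, so the groups overlapped, with a log2 difference of -0.40 (SE 0.279, limma adjusted p = 0.948). Hsf1, the heat shock factor, was at 9.38 and 7.66 FPKM in KO, against 11.9 and 11.8 FPKM in WT, without overlap (log2 difference -0.44, adjusted p = 0.948 in limma).

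In the neighbouring MAP kinase arms, p38 and ERK, limma, edgeR and DESeq2 each called 0 genes, and 0 had an unadjusted limma p under 0.05. The p38 arm had 5 of 8 tested genes higher and 3 lower by FPKM, at a median of 0.17, but by edgeR 3 were higher and 5 lower, at a median of -0.05. Of the 8, 2 had both KO libraries below both WT libraries and 2 had both above. Mapk13, a p38 gene, was at 13.4 and 16.2 FPKM in KO, against 22.6 and 20.8 FPKM in WT (log2 difference -0.53, limma adjusted p = 0.948). Mapkapk2, a kinase that p38 activates and the gene with the highest level of that arm, was at 52.8 and 55.3 FPKM in KO, against 64.4 and 58.9 FPKM in WT (log2 difference -0.19, limma adjusted p = 0.952). Mapk11 and Mapkapk5 had higher FPKM in both KO libraries. Mapk11 was at 1.26 and 1.84 FPKM in KO, against 0.877 and 0.934 FPKM in WT, and Mapkapk5 was at 26.7 and 28.8 FPKM in KO, against 21.6 and 21.9 FPKM in WT, with a limma adjusted p of 0.948 for each. The log2 difference of Mapkapk5 was 0.34 by FPKM and 0.05 by edgeR, and that of Mapk11 was 0.41 by FPKM and 0.76 by edgeR.

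The ERK arm had 7 of 10 higher and 3 lower at a median of 0.07 by FPKM, and 3 higher and 7 lower at a median of -0.11 by edgeR. Of the 10, 3 had both KO libraries below both WT libraries and 1 had both above. Map2k5, which encodes MEK5, was at 5.40 and 4.36 FPKM in KO, against 7.73 and 8.03 FPKM in WT (log2 difference -0.60, limma adjusted p = 0.948). Map3k8, a MAP3K of this arm, was at 1.83 and 2.2 FPKM in KO, against 4.93 and 2.55 FPKM in WT, and Map2k2, which encodes MEK2, was at 28.0 and 24.2 FPKM in KO, against 30.2 and 35.3 FPKM in WT. Both had a limma adjusted p of 0.948, and Map3k8 had a log2 difference of -0.61 by FPKM and -0.40 by edgeR. Mapk3, which encodes ERK1 and had the highest FPKM of that arm, was at 108 and 87.8 FPKM in KO, against 86.5 and 77.6 FPKM in WT. By FPKM it was higher in both KO libraries, at a log2 difference of 0.25, while by edgeR the difference was -0.08.

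**Figure D5:**
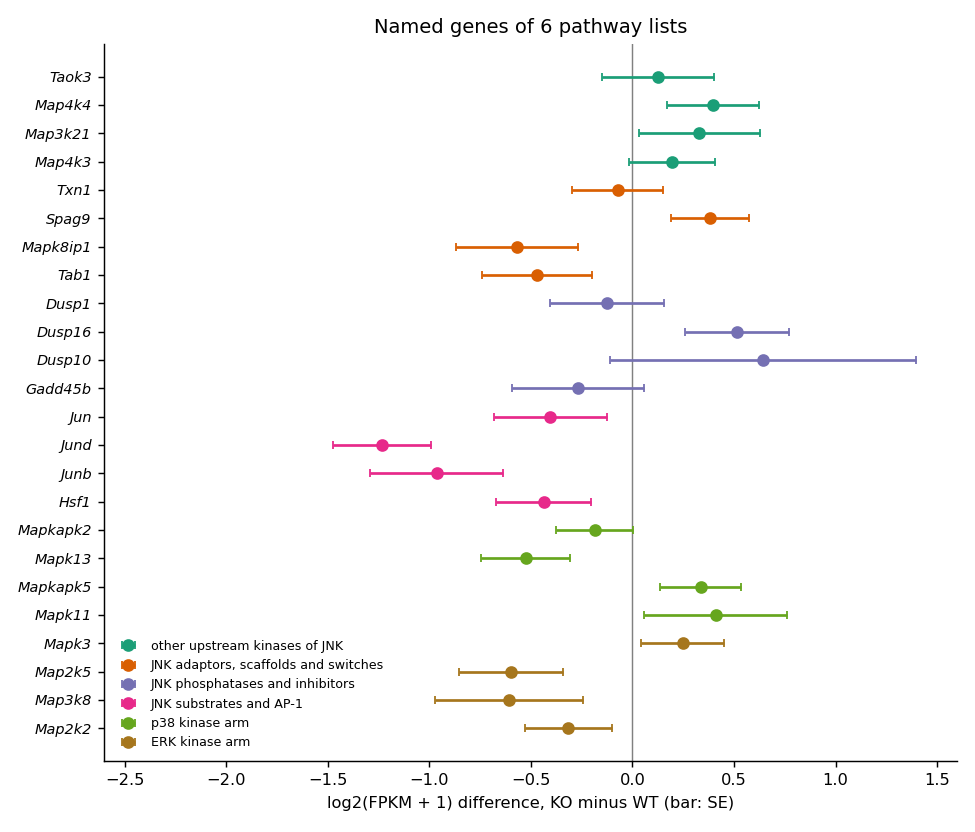
Log2(FPKM + 1) difference, KO minus WT (horizontal axis, bars are SE), of the named genes of the 6 pathway lists, coloured by list. Jund at -1.23 and Junb at -0.96 are the lowest, and the widest bar is that of Dusp10, whose KO libraries are at 0.624 and 7.30 FPKM.

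The profile of Map3k11 over the 4 libraries was set against every other tested gene, as the Euclidean distance between log2(FPKM + 1) values centred on their mean. Since Map3k11 was chosen for its pattern, this is a description over 4 libraries. The nearest gene was Hist1h3b, a replication-dependent histone gene, at a distance of 0.245, with 0.813 and 1.73 FPKM in KO, against 7.77 and 6.18 FPKM in WT. A gene with a clone name was second at 0.318. Tmem160 was the third at 0.352, with 2.60 and 3.16 FPKM in KO, against 10.4 and 7.46 FPKM in WT. Hist1h2bm, at 0.419, is listed at 0 in both KO libraries, against 2.03 and 2.50 FPKM in WT. Jund was the fifth at 0.452. Genes with few fragments in KO pass the level filter here through their WT values.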

How the data were processed

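Per the submitters' processing notes the tools were Cufflinks, Cuffdiff 2.2.1, HISAT2 2.0.4 and cutadapt 1.9.3, with the build mm10. Parameters, annotation release, strand setting and treatment of multi-mapping reads were not given in the sources used here. Per the file headers, FPKM values were deposited, which the authors scaled to transcript length and library size. The deposited counts are estimated counts scaled by the authors with 1 constant per library; dividing by it made 90.9% to 92.5% of positive values whole within 0.05, and the fragments so recovered gave CPM and, rounded, the count tests. A count of 0 allows 0.316 and 0.425 CPM in KO and 0.72 and 0.366 CPM in WT (3 fragments). Libraries were grouped by title.

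Genes with at least 1 FPKM in 2 of 4 libraries were tested with limma 3.58.1 (R 4.3.3; trend) on log2(FPKM + 1), KO minus WT, adjusted by Benjamini-Hochberg at 0.05. edgeR 4.0.16 (quasi-likelihood, TMM) and DESeq2 1.42.0 were alternatives, besides other pseudocounts, filters, scalings, no trend, a replicate block, leaving out each library, and leaving out genes that share a locus. The members and the gene lists were chosen with earlier results of these data known. Named genes were the cascade genes, genes at their loci (the text gives some), Jun and Jund, and, per list, the gene with the highest mean FPKM and the 3 with the smallest limma p. The 5 genes nearest to Map3k11 in profile were taken by distance, and clone names and predicted genes were counted. Exons are from GENCODE M21, coordinates 1-based. An older symbol wrongly given for Map3k21 was dropped, and that gene was matched by its identifier.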

Additional observations from a re-analysis of the deposited data

How the results depend on the processing

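limma called 0 of the 9 genes other than Map3k11 under every alternative run, and edgeR and DESeq2 called 0 of them too. Over all genes, edgeR without a filter called 5 and DESeq2 called 7, against 0; of the list genes DESeq2 called 1, Jund. Leaving out 1 library gave between 0 and 134 calls over all genes: 134 without KO replicate 2, 3 without WT replicate 2 and 0 without either other library. For list genes it gave 0 to 1, the 1 being Cdc42 (62.7 and 141 FPKM in KO, against 118 and 120 FPKM in WT; named after its values were seen; adjusted p 0.0497) without KO replicate 2. The lone library of a group is then assumed to vary like the other pair. Without KO replicate 2, the lone KO library is KO replicate 1, which carries the muscle signal. The part of that signal in the calls was not tested.

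Map3k11 lay between -1.94 and -1.44 in its 16 alternatives. These reuse the values that chose the gene, so the range supports nothing further. The limma filters, no trend and the replicate block leave a log2 difference as it was by construction. Map3k7 and Mapk8ip3 kept a positive sign. On fragments, however, Map3k7 was only at 0.0080 with TMM, 0.015 with RLE, 0.0068 with no filter and 0.013 with DESeq2. On leaving out 1 library, Map3k7 ran from 0.066 (without KO replicate 1) to 0.72. Mapk8ip3 ran from 0.044 (without WT replicate 2) to 0.62. On fragments, log2 differences turned, with TMM, RLE, no filter and DESeq2 in this order, to -0.077, -0.071, -0.076 and -0.074 for Map3k12, to -0.037, -0.032, -0.036 and -0.033 for Map2k7 and to -0.13 in each for Mapk8. Leaving out 1 library turned the sign in 7 genes, over ranges of -0.079 to 0.96 for Map3k1, -0.10 to 0.65 for Map3k5, -0.12 to 0.39 for Map3k12, -0.18 to 0.10 for Map2k4, -0.087 to 0.29 for Map2k7, -0.10 to 0.32 for Mapk8 and -0.39 to 0.18 for Mapk9; the cause was not tested. Map3k12 gives no value under the filter of 5 FPKM, nor do Map3k11, Map3k12, Map2k7 and Mapk8ip3 without genes that share a locus.

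The fit with the replicate number as a block called 0 genes. In this balanced design the block cannot move a log2 difference, so Map3k11 kept -1.64 by construction. The correlation of same-numbered deviations across genes was 0.0257. With only 2 pairs it cannot show whether the libraries were paired. WT replicate 1 is the shallowest library and limits low genes most.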
